A study of Sus scrofa domesticus with 4 samples.

Results

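The transcripts described here are those whose signal was higher in the pregnant than in the cyclic gilt on every array of the study. A probe was taken when both of its spots' dyes were well above background and free of non-uniformity flags on all 4 arrays, and when its log2 ratio of pregnant over cyclic was at least 0.5, a 1.41-fold difference, on each of them. Of 43603 probes, 16397 passed the flags and 171 of these met the ratio, 1.04% of the probes that passed. The 171 probes were chosen by their ratios, so the ratios below are a description and carry no test. In the opposite direction, 51 probes (0.311%) were at or below -0.5 on all 4 arrays.

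The tissue was the anterior pituitary of 8 mature Large White x Polish Landrace gilts of about 110 kg. The 4 pregnant gilts had been naturally bred, carried conceptuses and were killed on days 12 to 13 of pregnancy, and the 4 cyclic gilts were killed on days 12 to 13 of the estrous cycle. Each of 4 two-colour arrays set RNA of a pregnant against RNA of a cyclic gilt. By the sample labels pregnant RNA carried Cy3 on arrays 1 and 3, while arrays 2 and 4 had it in Cy5. The authors' deposited log2 ratios follow these labels on all 4 arrays. The labelling protocol names only Cy3 for pregnant RNA. Read that way for all arrays, ratios on arrays 2 and 4 change sign, so by their selection 0 of the 171 probes could meet the rule. Under that reading 9 other probes met it, and 12 were at or below -0.5 on all 4 arrays. RNA came from the bulk tissue, so more cells of a type and more RNA per cell cannot be told apart.

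The anterior pituitary secretes the trophic hormones that govern the ovary, mammary gland, adrenal, thyroid and growth, under control of hypothalamic releasing and inhibiting factors and of ovarian steroids. On these days of gestation the porcine conceptuses elongate and signal their presence, and the corpora lutea are kept. In a cyclic gilt of the same day the corpora lutea are still active, so both groups are in a progesterone-dominated phase.

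Over the whole table no probe stood apart by test. With limma, 0 of 21616 tested probes (0.0%) had a Benjamini-Hochberg adjusted p under 0.05, and 3898 had an unadjusted p under 0.05. The count with an adjusted p under 0.05 changed with the arrays used: it was 3352 without array 1, 4 without array 3 and 0 without array 2 or array 4. With 3 arrays and a dye effect in the fit, 1 array is alone in its dye orientation. The spread within a probe then comes from the other 2 arrays only. Without array 1 the lone array is array 3, so its ratios do not enter the spread. On all 4 arrays, median centring of the processed signals, or a fit with no dye effect, gave 2 such probes. No spot was saturated. Spots well above background made up 60.9%, 62.0%, 67.9% and 47.5% of Cy3 spots and 71.6%, 71.8%, 63.7% and 60.7% of Cy5 spots on arrays 1 to 4. With 8 gilts on 4 arrays the spread below is between pairs of animals, and the number of arrays limits its precision.

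Only 4 of the 171 probes could be given a gene symbol, for the receptor gene SSTR5, the transcription factor gene NR4A3, the enzyme gene PNMT and the class II histocompatibility gene SLA-DQB1. The other members carry only a sequence accession or a consensus name, and 1 has no sequence name. A symbol was known for 2660 of the 16397 probes that passed, so 2.34% of the members and 16.2% of the passing probes were named. Representing each gene by 1 probe, 151 of 1503 named genes were above 0 on all 4 arrays and 155 (10.3%) below 0 on all of them. Over all passing probes, 2966 (18.1%) were above 0 and 1472 (8.98%) below 0 on all arrays.

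SSTR5 encodes a receptor for somatostatin, the hypothalamic peptide that restrains release of growth hormone and thyrotropin. Its single probe (NM_001038229) had log2 ratios of 1.45, 1.24, 0.75 and 2.11 on arrays 1 to 4. The mean was 1.39 ± 0.56 (SD, n = 4), a 2.62-fold higher signal in pregnant gilts. Array 4 gave the highest ratio and array 3 the lowest, so SSTR5 ran against the pattern of most members, which peaked on array 3.

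The levels of SSTR5 in single gilts were less even among the pregnant animals. A level here is the log2 processed signal of a gilt relative to the median of the 16397 passing probes in the cyclic channel of its array, set so that the 2 gilts of an array differ by their ratio. The 4 cyclic gilts lay between 2.37 and 2.67, and the pregnant gilts at 4.01, 3.86, 3.12 and 4.78 on arrays 1 to 4. The groups did not overlap, and the SD was 0.68 among pregnant and 0.13 among cyclic gilts. Of the other somatostatin receptors, SSTR3 had a passing probe, with a mean log2 ratio of -0.06, and the probe of SSTR2 was not well above background on all arrays.

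NR4A3 encodes an orphan nuclear receptor that many cells induce within a short time of hormonal or cAMP stimulation. Its member probe (NM_214247) had log2 ratios of 2.76, 0.57, 3.90 and 1.72 on arrays 1 to 4, with a mean of 2.24 ± 1.43 (SD, n = 4), 4.71-fold. The ratio was far from even, and array 2 lay just above the threshold. The pregnant gilts had levels of 2.51, 0.25, 4.57 and 3.95 and the cyclic gilts -0.25, -0.31, 0.67 and 2.24, so the groups overlapped: the pregnant gilt of array 2 lay below the cyclic gilts of arrays 3 and 4. The member probe is 1 of 4 on this accession, and 3 of the 4 passed the flags.

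The second passing probe of NR4A3 followed the first, with 2.20, 0.37, 3.34 and 1.87, and missed the rule through array 2. The third gave -0.14, -0.01, 0.42 and 1.00 and did not follow it. The probe that failed the flags had 2.68, 0.77 and 3.76 on arrays 1 to 3 and -0.94 on array 4, where it did not pass. Of the 9 immediate early and activity-induced genes with a passing probe, 4 were above 0 on all arrays and 2 below, with a median ratio of 0.22 against 0.00 over the 1503 named genes. FOS, an early gene of the same kind of response, had a mean log2 ratio of -1.48, opposite to that of NR4A3.

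PNMT encodes phenylethanolamine N-methyltransferase, which converts noradrenaline to adrenaline and is known chiefly from the adrenal medulla. Its probe (NM_001123164) had log2 ratios of 0.75, 1.07, 0.67 and 0.91 on arrays 1 to 4, with a mean of 0.85 ± 0.18 (SD, n = 4), 1.80-fold. The ratios were close to one another, yet the gilts were not: pregnant levels ran from -2.91 to -1.46 and cyclic levels from -3.61 to -2.37, and the groups overlapped. With another background correction and normalisation (normexp and loess, described below) the mean ratio was 0.17 ± 0.13 (SD, n = 4).

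SLA-DQB1 encodes the beta chain of a class II histocompatibility molecule, through which antigen-presenting cells show peptides to helper T cells. Its member probe (NM_001113694) had log2 ratios of 0.58, 0.98, 0.73 and 0.92 on arrays 1 to 4, with a mean of 0.80 ± 0.18 (SD, n = 4), 1.74-fold. Pregnant gilts lay between 4.36 and 4.86 and cyclic gilts between 3.52 and 3.93, with no overlap. The mean was 0.73 ± 0.08 with normexp and loess, and the probe was still at or above 0.5 on every array.

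The other probes of SLA-DQB1 agreed only in part. The other passing probe had -0.56, 0.76, -0.30 and 1.46, negative on arrays 1 and 3 and positive on arrays 2 and 4, which is the division of the dyes. The member probes of SLA-DQB1 and PNMT also had higher ratios on both arrays with pregnant RNA in Cy5 than on both others, as 9 of the 171 members did. Of the probes that failed a flag, 1 had 0.65, 0.37, 0.35 and 0.33 and the other 0.48, 0.32, 0.00 and 0.69. Class II genes form a family of similar sequences, and transcripts of relatives may not be separated by a probe. Markers of myeloid cells and of lymphocytes were not shifted alike. Of 6 myeloid marker genes with a passing probe 4 had a negative mean ratio, with a list median of -0.14. Of 4 lymphocyte markers 3 had a positive one, with a list median of 0.26. These were CD8A (0.21), CCL5 (0.38) and GZMB (0.31), while CD79A had -0.35. Not all cells of these lists carry class II. The mean level of the myeloid list ran from 0.33 to 1.38 in pregnant and from 0.20 to 1.53 in cyclic gilts, and that of the lymphocyte list from 0.06 to 0.76 and from -0.18 to 0.55. Their part in the ratio of SLA-DQB1 was not tested.

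**Figure D1:**
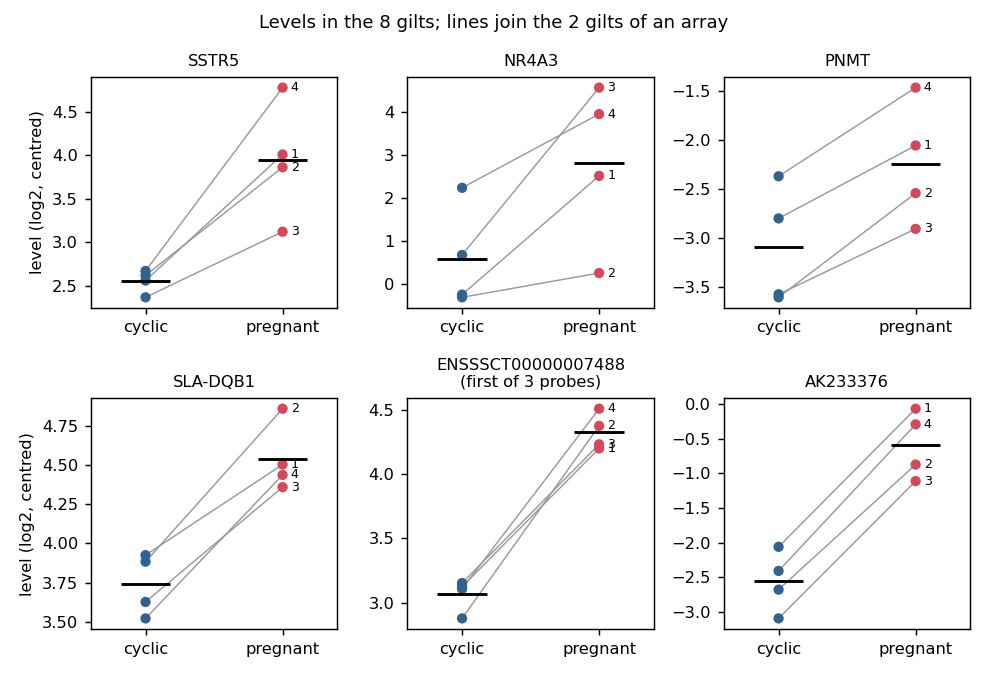
Levels of 6 member probes in each of the 8 gilts (log2 processed signal relative to the median of the passing probes). Points are gilts, numbered by array on the pregnant side, lines join the 2 gilts of an array, and black bars are group means. SSTR5, SLA-DQB1, ENSSSCT00000007488 and AK233376 do not overlap between groups, while NR4A3 and PNMT do.

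Among members with no symbol, the 10 with the highest lowest ratio began with TC415907, at 2.71, 2.03, 3.84 and 2.07 on arrays 1 to 4. Its mean log2 ratio was 2.66 ± 0.84 (SD, n = 4), 6.32-fold, the highest mean of all 171 probes. Cyclic gilts lay between -3.52 and -1.53 and pregnant gilts between -0.81 and 1.52, without overlap. The levels of both groups were thus widely spread. That each pair kept its order follows from the rule, as for every member.

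AK233376, a full-length cDNA accession, had the most even ratio of these 10, at 1.99, 1.80, 1.98 and 2.11. The mean was 1.97 ± 0.13 (SD, n = 4), 3.92-fold, with pregnant gilts between -1.11 and -0.07 and cyclic gilts between -3.09 and -2.06. With normexp and loess its ratios were 0.91, 0.70, 0.57 and 0.69. The ratio was thus even under both ways of processing but much smaller under the second.

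EU056576 and the Ensembl transcript ENSSSCT00000015391 gave nearly the same ratios on each array. The first had 2.61, 1.35, 1.72 and 2.32 and the second 2.52, 1.31, 1.56 and 2.34, so on no array did they differ by more than 0.16. The second had a mean of 1.93 ± 0.59 (SD, n = 4), 3.82-fold, and the first lay at 4.00-fold; neither overlapped between the groups. Array 1 gave both their highest ratio and array 3 did not stand out. These 2 probes also had the highest lowest ratio after normexp and loess, 0.98 and 0.92.

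ENSSSCT00000007488 was the only sequence name with 3 member probes, and all of its probes on the array were members. The first had log2 ratios of 1.0745, 1.496, 1.0776 and 1.3996, the second 0.82, 1.20, 0.71 and 1.37, and the third 0.70, 1.04, 0.70 and 1.17. Their means were 1.26 ± 0.22, 1.03 ± 0.31 and 0.90 ± 0.24 (SD, n = 4), and in all 3 probes arrays 2 and 4, where pregnant RNA carried Cy5, lay above arrays 1 and 3. In the first probe pregnant gilts lay between 4.20 and 4.51 and cyclic gilts between 2.88 and 3.15. The 3 spots sit far apart on the array, in spot rows 115, 519 and 418. All 3 probes were still at or above 0.5 on every array after normexp and loess, with means of 1.12, 0.86 and 0.76.

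The other 5 of the 10 were TC422036, CV864747, TC447788, CV871507 and TC428238. Their mean log2 ratios were 1.98 ± 0.62, 2.12 ± 1.32, 1.61 ± 0.59, 1.34 ± 0.27 and 1.38 ± 0.31 (SD, n = 4). All 5 were highest on array 3, and CV864747 most of all, with 4.07 there against 1.16 to 1.69 on the other arrays. CV864747 and TC428238 overlapped between the groups and the other 3 did not. CV871507, at 1.16, 1.45, 1.67 and 1.08, and TC422036 were still at or above 0.5 on every array after normexp and loess.

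The 171 probes carried 168 sequence names, and 8 names had further probes. These 8 names had 25 probes outside the members, of which 12 passed the flags; 6 of the 12 were above 0 on all arrays and 1 below 0 on all. The clearest agreement beside ENSSSCT00000007488 was that of XM_001927442, a predicted transcript with no symbol in the table used. Its member probe had 1.43, 1.29, 0.53 and 0.70, and its other 3 probes were above 0 on all arrays, with means of 0.90, 0.82 and 0.97 against 0.99. In each of its 4 probes arrays 1 and 2 gave higher ratios than arrays 3 and 4.

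The clearest disagreement was that of ENSSSCT00000006652, with 13 probes. Its 2 members had 0.84, 0.69, 2.32 and 0.95 and 0.85, 0.65, 2.20 and 0.74, nearly alike. The other 4 passing probes had means between -0.26 and 0.22, and the 7 that failed a flag did not reach 0.5 on all arrays either. For this transcript the ratio therefore depended on the probe. ENSSSCT00000011768 and ENSSSCT00000008062 had 1 other passing probe each, with means of 0.49 and 0.28 against 0.68 and 0.72 for their members.

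The ratios of the members differed most between arrays through array 3. Over the 171 probes the median ratios of arrays 1 to 4 were 0.82, 0.90, 1.69 and 0.75, or 1.76-fold, 1.87-fold, 3.22-fold and 1.68-fold. Array 3 gave the highest ratio for 139 members and the lowest for 5, and for 56 it lay at least 1 above the next highest array. Over all passing probes array 3 also had the widest ratios, with an SD of 0.87 against 0.43 to 0.49 on the others, and it gave the highest ratio for 73.2% of the 2966 probes above 0 on all arrays. The lower 51 probes had medians of -1.18, -0.90, -0.88 and -0.79. Without the 13 probes of ENSSSCT00000019670 the other 38 had medians of -1.02, -0.82, -0.98 and -0.72, and 20 of them were lowest on array 3.

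**Figure D2:**
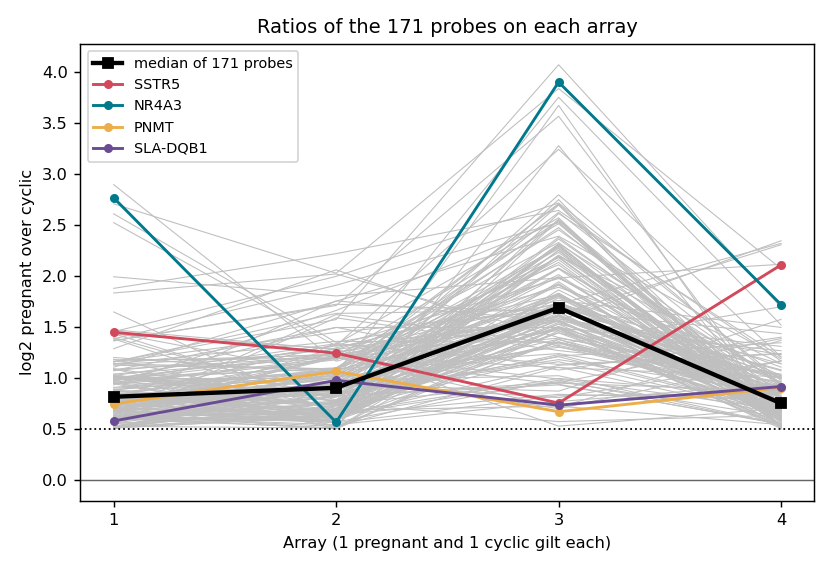
Log2 ratio of pregnant over cyclic on each of the 4 arrays for the 171 probes (grey), their median (black squares) and the 4 named genes (coloured). The dotted line is the threshold of 0.5; the median is 1.69 on array 3 and 0.75 to 0.90 on the others, while SSTR5 is lowest there.

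On array 3 the level of the cyclic gilt was low and that of the pregnant gilt high for most members. Each gilt was read on a single array in a single dye, so animal, array and dye cannot be told apart here. For 119 of the 171 members (69.6%) that cyclic gilt had the lowest level of the 4 cyclic gilts, against 30.6% of passing probes. The pregnant gilt of array 3 had the highest level of the 4 pregnant gilts for 101 members (59.1%), against 35.1% of passing probes. The median difference from the mean of the other 3 gilts was -0.56 for the cyclic and 0.35 for the pregnant animal. The rule over arrays 1, 2 and 4 took 229 probes, of which 56 passed on array 3 but fell under 0.5 there and 2 had no passing spot.

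Across gilts, 135 of the 171 members (78.9%) had all 4 pregnant levels above all 4 cyclic levels, against 877 (5.35%) of passing probes. The rule used the same contrast, so nothing is read from that difference. With levels centred on all probes in place of the passing ones, 95 members did not overlap, against 289 passing probes (1.76%). The mean log2 ratio of the members ran from 0.64 to 2.66 with a median of 1.09, 2.13-fold, against a median of 0.06 over passing probes. Of the 171, 107 had a mean of at least 1 and 3 of at least 2. The SD over arrays was under 0.3 for 35 members and reached 1.47.

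The members ran down to the threshold with no gap. The lowest of the 4 ratios was under 0.6 for 66 members, between 0.6 and 1 for 92 and at least 1 for 13. Just inside lay TC446614, TC413258 and TC435515, whose lowest ratios were all 0.50, and just outside lay TC429724, TC451147 and AJ655810, also at 0.50 when rounded. Another 136 passing probes had a lowest ratio between 0.4 and 0.5, so the list has no natural edge. All 171 members have 1 spot, so each ratio on an array comes from a single spot. Of the 43603 probes, only 50 had 5 spots, so nothing is read from their absence among the members.

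Members were mostly probes for sequences that are not curated genes. TC names, which stand for consensus sequences assembled from expressed sequence tags, made up 96 of the 171 members (56.1%), against 23.8% of passing probes. GenBank tags and cDNAs made up 58 (33.9%, against 28.2%), Ensembl transcripts 10 (5.85%, against 24.2%) and RefSeq accessions 6, while 1 member had no sequence name. Among passing probes 2.46% of those with a TC name were members, 1.25% of GenBank, 0.252% of Ensembl and 0.207% of curated RefSeq probes. Among the lower 51 probes 5 had TC names (9.80%) and 23 Ensembl names (45.1%), but 13 of those 23 probes belong to 1 transcript, ENSSSCT00000019670.

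The ratios of whole kinds of probes were shifted too. Over passing probes the median log2 ratio of TC names was 0.03, 0.21, 0.57 and 0.22 on arrays 1 to 4, and that of curated RefSeq probes -0.18, -0.02, -0.11 and 0.09. TC probes were thus above RefSeq probes on each array, by most on array 3. Most members of both main kinds were highest on array 3, 83 of the 96 with TC names and 49 of the 58 with GenBank names. When each array was centred within each kind of name, a setting added after the data were seen, 88 probes met the rule and 81 of them were among the 171. How far the kind of sequence takes part in the ratio of a member was not tested beyond that setting.

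**Figure D3:**
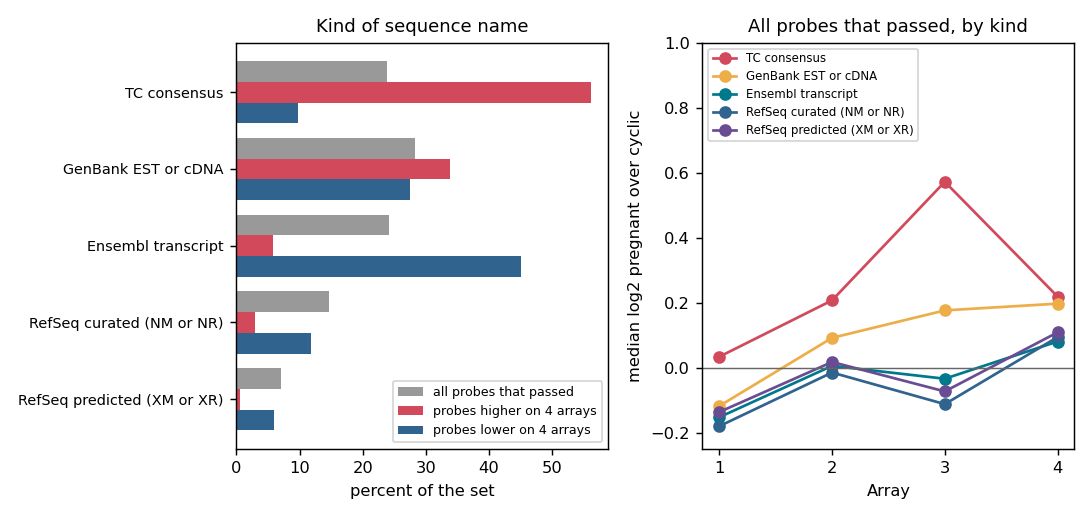
Left, percent of the passing probes, of the 171 higher and of the 51 lower probes by kind of sequence name. Right, median log2 ratio of all passing probes of each kind on each array. TC names make up 56.1% of the higher probes and their median is 0.57 on array 3.

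The place of the spot on the array also went with membership. Spot rows 1 to 76 held 49 members, 2.05% of the passing probes there, against 0.679% to 1.16% in the other 6 bands of 76 rows. In these top rows the median ratio of passing probes was 0.32 on array 4, against 0.07 to 0.18 lower down, and -0.05 on array 1, against -0.12 to -0.10. Of the 10 members described above, 6 lie in these rows, TC415907, AK233376 and EU056576 among them. The spots of TC415907 and AK233376 are close together, in rows 76 and 74 and columns 9 and 7. PNMT also lies in these rows, in row 16, and SSTR5 just outside, in row 77. With each array centred within bands, again a setting added later, 172 probes met the rule and 129 of them were among the 171. EU056576, ENSSSCT00000015391, TC415907 and AK233376 were among the members so kept, as were the 4 named genes.

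**Figure D4:**
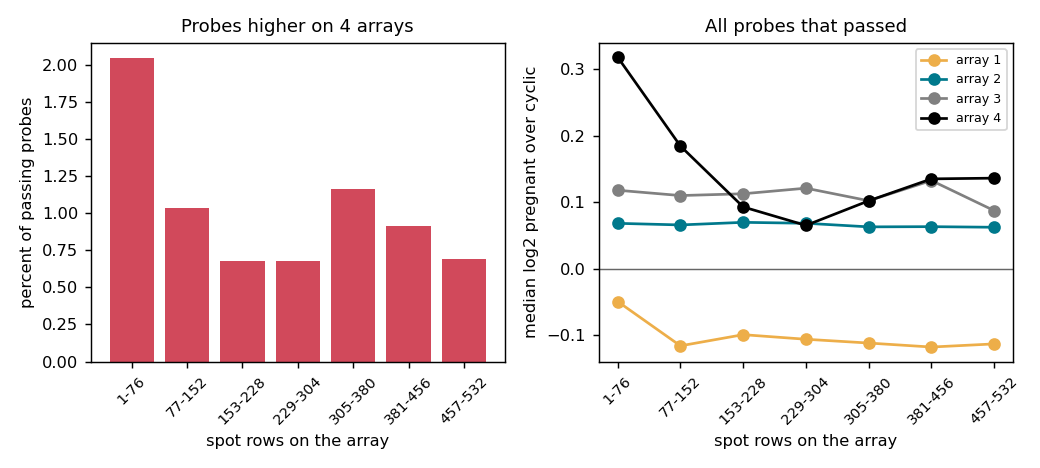
Left, percent of passing probes that were higher on all 4 arrays in each band of 76 spot rows. Right, median log2 ratio of all passing probes in each band on each array. The first band has 2.05% and array 4 has a median of 0.32 there.

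Array 4 took the most probes out of the group. It had passing spots for 42.4% of probes, against 55.5% to 58.5% on the other arrays. Arrays 1 to 3 alone gave 860 probes; of these 230 had no passing spot on array 4 and 459 passed there but were under 0.5. Leaving out array 1 gave 415 probes and leaving out array 2 gave 235. The ratios of passing probes on array 4 had a Pearson r of 0.04 with those of array 3, 0.10 with array 1 and 0.32 with array 2, while arrays 1 to 3 had 0.41 to 0.46 with one another; these are across 16397 probes, which are not independent.

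The processing decided the size of the group. After normexp background correction on median signals with an offset of 50 and loess within the array, 23 probes (0.14%) were at or above 0.5 on all arrays, and 22 of them were among the 171. All 171 probes were still above 0 on every array, against 13.8% of passing probes. They were chosen at or above 0.5 on the same scans, so nothing is read from that difference. Their medians were 0.57, 0.49, 0.98 and 0.31, with a median of the mean ratios of 0.63 in place of 1.09. Loess on the processed signals alone left 99 of the 171 and normexp with median centring left 23, so more were lost with normexp than with loess. TC probes had medians of 0.07, 0.10, 0.32 and 0.04 after normexp and loess.

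The 22 probes kept under both ways of processing carried 20 names. They were 11 TC names, 5 GenBank accessions, 5 Ensembl probes and the SLA-DQB1 probe. By the levels of the processed signals, 21 of the 22 did not overlap between the groups. The same held for 78.9% of all members and 5.35% of passing probes. The probes were chosen on the same contrast, so nothing is read from these shares. The 22 included EU056576, ENSSSCT00000015391, the 3 probes of ENSSSCT00000007488, TC415907, TC469778, CV871507, EW218376 and TC423284. EW218376, at 0.69, 0.94, 0.81 and 1.17 on the processed signals and 0.79, 0.71, 0.75 and 0.85 after normexp and loess, had a mean of 0.90 and 0.78 in these. SSTR5 missed the rule there only on array 3, at 0.49, with a mean of 1.23 ± 0.56 (SD, n = 4). NR4A3 had a mean of 1.93 ± 1.41.

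**Figure D5:**
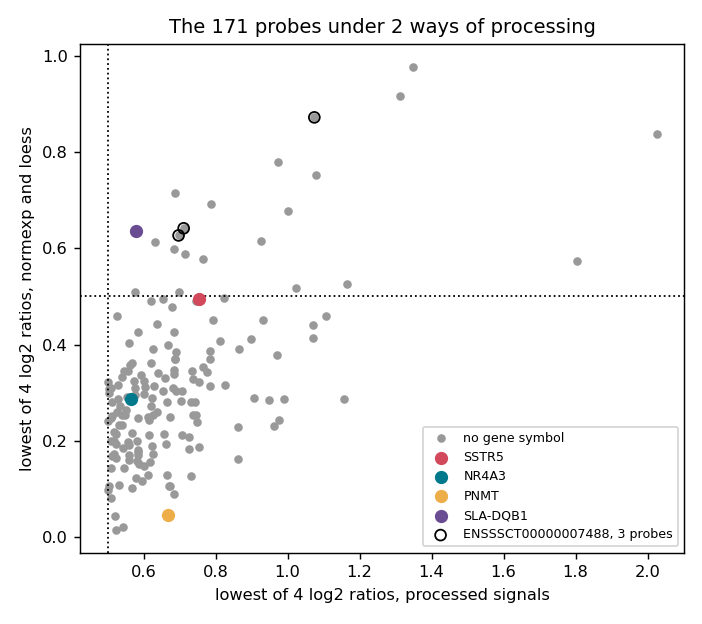
Lowest of the 4 log2 ratios of each of the 171 probes from the processed signals (horizontal) and after normexp and loess (vertical), with the 4 named genes coloured and the 3 probes of ENSSSCT00000007488 ringed. Dotted lines mark 0.5. On the vertical axis 22 probes lie above it and all lie above 0, against 13.8% of all passing probes above 0 on all 4 arrays there.

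Only 4 members had a symbol, so few could appear in lists of named genes. Of 17 receptors for hypothalamic and peripheral hormones with a passing probe, 2 were above 0 on all arrays, SSTR5 included, and 0 below, with a list median of 0.15. Of 6 genes of cAMP signalling 2 were above and 1 below 0 on all arrays, and of 24 interferon response genes 3 and 2. Of 27 cytosolic ribosomal protein genes 8 were above 0 on all arrays and 1 below, with a median of 0.19, and none was a member. In the prostaglandin list, 3 of 8 were above 0 on all arrays and 1 below; PTGES had a mean of 0.79 and was no member. The polyamine list had 1 of 7 above 0 on all arrays, OAZ3, whose mean of 1.95 did not make it a member. Each count stands beside 151 of 1503 above and 155 below for all named genes. Of the 1503, 4 were at or above 0.5 on all arrays, so nothing is read from the lack of members in a list.

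Defining genes of the gland were present. Of 7 hormone genes 6 had a passing probe, none of them a member, and the seventh, FSHB, had spots well above background on 4 arrays but a flag. Of the neural and other-lobe markers AVP had no passing probe and OXT did, with a mean ratio of -0.00; that list had a median of 0.06 over 4 genes. The 4 proliferation genes with a passing probe all had negative means, with a median of -1.19, and the 4 stromal genes had a median of -0.48. No marker of any of the 9 cell type lists was a member, and the erythrocyte list had no gene with a probe. Over all named genes with a passing probe, 4 of 1503 were at or above 0.5 on all arrays. Lists this short would mostly hold none, so nothing is read from the absence of members among hormone or marker genes. The part of other cells in the members' ratios was not tested.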

How the data were processed

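Two-colour arrays of design 026440 were read by Agilent Feature Extraction 10.7.3.1, per the file headers. Per the file headers, the deposited files of each scan hold spot and background intensity, flags, and processed signals that are background-subtracted and dye-normalised. The authors' deposited value table holds log2 ratios; against the log2 ratio of the processed signals turned by the labelled dyes each column had a slope of 1.00, so its direction is pregnant over cyclic and it is not centred, with medians of 0.07, -0.08, -0.18 and -0.17. Software behind that table: not given in the sources used here.

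Signals of spots of 1 probe were averaged, ratios turned by the labelled dyes, and each array was centred on its median over 43603 probes. Control spots were left out. Names came from RefSeq accessions compared, versions dropped, with NCBI's pig gene list (Sscrofa11.1), which named 5578 probes. Coordinates and sequences are not used here.

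The whole table was fitted with limma 3.58.1 in R 4.3.3 after normexp (offset 50) and loess, with a dye effect, on probes well above background in every channel of at least 1 group and unflagged on at least 3 arrays. Rule and fit were run on simulated data to check the code. For the rule the simulated noise was much smaller than the spread in these data, so its error rate here was not measured. Members, lists and alternatives were chosen with earlier results of these data known. Named are members with a symbol, 10 without, those nearest the threshold (5 on each side looked at), other probes of the same name, and genes of the lists. TC469778, EW218376, TC423284, XM_001927442, FOS, SSTR3, PTGES, OAZ3 and the lymphocyte markers were named after their values were seen. A gene of a list is represented by its passing probe with the highest mean level. The plots were drawn with matplotlib 3.10.9 in Python 3.11.15.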

Additional observations from a re-analysis of the deposited data

Results flagged for a closer look

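None of the 4 named genes and none of the 10 described members without a symbol had an array, nor the 4 genes a gilt, whose gap to the others passed Dixon's 95% critical value; chance marks about 1 in 20 sets. Over all 171 members 33 sets of 4 ratios (19.3%) passed that value, against 6.72% of passing probes, and in all 33 the array apart was array 3.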

How the results depend on the processing

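The count of 171 higher probes (51 lower) was the same from the deposited value table and from log2 ratios averaged over spots. It was 110 (102) with no centring, 23 (29) with normexp and loess, 9 (12) with pregnant RNA taken as Cy3 on all arrays, 762 (260) at a threshold of 0.25, 13 (3) at 1.0, and 425 (202) with no requirement on background. The share of higher among both was 77.0% in the main setting, 51.9% with no centring and 44.2% with normexp and loess. Leaving out 1 array gave 229 to 860 higher and 94 to 329 lower probes. Settings added after the data were seen gave 128 (84) when centred on the passing probes, 172 (49) within spot rows, 88 (84) within kinds of name, 31 (5) with normexp and median centring and 113 (95) with loess on processed signals. The share of higher was 60.4%, 77.8%, 51.2%, 86.1% and 54.3% in these.

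With pregnant RNA as Cy3 on all arrays the mean was reversed for SSTR5 (-0.29), PNMT (-0.14) and SLA-DQB1 (-0.15) and was 1.09 for NR4A3. PNMT was 0.17 with normexp and loess and 0.19 with normexp and median centring. Leaving out 1 array gave 1.1485 to 1.5997 for SSTR5, 1.68 to 2.79 for NR4A3, 0.77 to 0.91 for PNMT and 0.74 to 0.88 for SLA-DQB1. With pregnant RNA as Cy3 on all arrays none of the 4 could meet the rule, since ratios on arrays 2 and 4 change sign. Of the other 14 settings at the same threshold SLA-DQB1 met the rule in 13, SSTR5 in 12, and NR4A3 and PNMT in 11. Leaving out 1 array, dropping the background requirement, averaging ratios over spots or using the deposited values left the members' ratios unchanged. All 171 stay in under these, so only the remaining settings could lose a gene. Normexp and median centring lost SLA-DQB1, SSTR5 and PNMT, and normexp and loess lost SSTR5, NR4A3 and PNMT. No centring lost NR4A3 and PNMT, and loess on processed signals lost NR4A3. The count of limma calls, 0, was 2 with median centring, 2 with no dye effect, and 0 with all channels above background or the other dyes. Without 1 array it was 0 to 3352, in fits whose spread within a probe rests on 2 arrays. The ratios, and the limma fit on them, are already within pairs of gilts. Depth is limited by signal over background: array 4 had the fewest passing spots.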

Other observations

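Arrays of the same dye orientation gave a further view of the members. For 39 members (22.8%) arrays 1 and 3 both lay above arrays 2 and 4, and for 9 (5.26%) both lay below, against 14.4% and 28.8% of passing probes. The median difference between the mean of arrays 1 and 3 and that of arrays 2 and 4 was 0.42 for the members and -0.08 for passing probes. Gilts of arrays 1 and 3 are other animals than those of arrays 2 and 4, so dye and animal cannot be told apart.

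The 32 members whose highest ratio was not on array 3 were of TC or GenBank names in 68.8% of cases, against 90.1% of all 171. They included the 4 probes of SSTR5, PNMT, SLA-DQB1 and XM_001927442, beside EU056576, ENSSSCT00000015391 and the 3 probes of ENSSSCT00000007488. NR4A3 was highest on array 3.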
